A study of Mus musculus with 16 samples.

Results

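Livers of 4 Gadd45b null mice given N-diethylnitrosamine (DEN) were compared with livers of 4 wild-type mice given the same carcinogen, with 1 array per mouse, to ask which transcripts differ when Gadd45b is missing and no tumor promoter is given. The 8 arrays were taken by the genotype and treatment in their titles, KO DEN and WT DEN, out of 16 in the series, and were compared across 41174 non-control probes. All 8 mice were males that received DEN at 90 mg/kg at 5 weeks of age, drank plain water from then on, and were examined at 57 weeks. The other 8 mice, WT DEN + PB and KO DEN + PB, also male and 57 weeks old, had the same DEN dose followed by phenobarbital (PB) at 0.5 g/l in the drinking water from 7 weeks of age, and are used here as a second genotype comparison. WT mice were C57BL/6J. The KO mice came from a commercial stock with a germline null allele and lacked the gene in every cell. The stock's name lists another inbred strain beside B6 while the study describes the null mice as C57BL/6J, and strain background and the null allele cannot be told apart in these arrays. The liver pieces came from outside tumors. No mouse went without DEN, so the effect of DEN itself was not measured.

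Gadd45b belongs to a small family of stress-inducible proteins, with Gadd45a and Gadd45g, that have no known enzymatic activity and act by binding partners. In the liver, GADD45B is known to bind and restrain MKK7, the kinase that activates JNK, to bind MEKK4 upstream of p38, and to act with the nuclear receptor CAR. The gene is switched on by NF-kappaB, by transforming growth factor beta and by CAR activators. Bulk liver RNA comes mostly from hepatocytes, with Kupffer cells (the resident macrophages), sinusoidal endothelial cells, stellate cells and cholangiocytes also present. In such samples, fewer cells of a type and less RNA per cell cannot be told apart.

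Values below are log2 processed signals relative to the array's own 75th percentile. This percentile was 163 to 284 on the 8 arrays, and 58.7% to 67.1% of spots were well above background. Across probes, r was 0.974 to 0.990 between WT DEN arrays, 0.975 to 0.988 between KO DEN arrays, and 0.958 to 0.986 between a WT DEN and a KO DEN array. The mean level of 16 hepatocyte identity genes was 6.68 to 6.93 on the WT arrays and 6.83 to 6.92 on the KO arrays, against -4.37 to -3.34 and -4.08 to -3.38 for 10 pancreatic acinar genes. In a fit that estimates a weight for each array, WT DEN replicate 3 (0.393) and KO DEN replicate 2 (0.378) had the lowest weights of the 16.

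The targeted gene checked the labels. The signal of Gadd45b was -0.60, -0.54, 0.12 and -1.70 on the 4 WT arrays and -7.67, -7.03, -7.03 and -6.92 on the 4 KO arrays. The groups lay far apart, and none of the KO arrays was well above background, so the fall can be given only as a bound: Gadd45b was at least 23.6-fold lower in KO DEN (limma adjusted p = 4.59e-08, and p = 0.0286 in a two-sided exact permutation test, the smallest that 4 arrays against 4 allow). A second probe of the gene gave at least 12-fold.

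KO and WT livers differed in 522 of the 13306 genes tested (3.92%). A gene is called here where a probe changed at least 1.5-fold with an adjusted p below 0.05. Of these, 240 were higher in KO DEN, 281 were lower and 1 had probes in both directions. By direction, the background rates were 1.81% higher and 2.12% lower. The median log2 difference over all genes was -0.04, and 45.1% of genes lay above 0. A linear model for all 16 arrays (limma) gave 750 called probes and 4977 at an unadjusted p under 0.05. The count rests in part on single arrays: it was 208 without WT DEN replicate 3, 217 without KO DEN replicate 2, 233 without KO DEN replicate 4 and 292 without WT DEN replicate 1. It was 211 with slide as a block and 15 under normexp background correction. Of the 56 genes picked by rule for description and called, 32 kept their call whichever of the 8 arrays was left out. Without WT DEN replicate 3, 23 lost it (adjusted p of 0.0535 to 0.151), and without KO DEN replicate 2, 22 did (0.0545 to 0.138). The 21 lost in both runs were Btg2, Casp1, Cd3g, Cidec, Dnajb9, Gbp2, Hgf, Hk2, Hmox1, Id1, Il18bp, Lpl, Meg3, Orm2, Pecam1, Retn, Ripk3, Sik1, Ski, Vnn1 and Zfp36. In addition Clec4g and Mmp13 were lost without WT DEN replicate 3 and Fcgbp without KO DEN replicate 2. Casp1, Hgf and Pecam1 lost their call with any 1 of the 8 arrays left out.

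**Figure D1:**
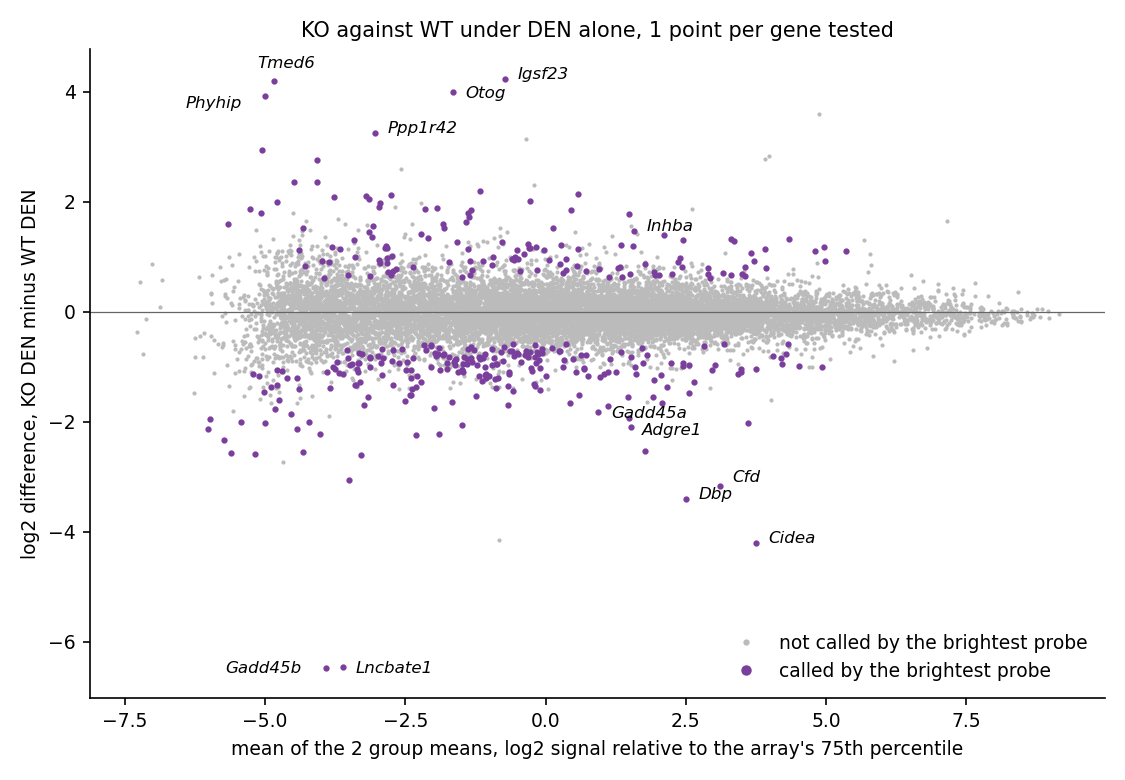
Log2 difference between KO DEN and WT DEN (y axis) against the mean of both group means (x axis, log2 signal minus that array's 75th percentile), 1 point for each of 13306 genes by its brightest tested probe. Purple points are the 367 genes called by that probe, and Gadd45b and Lncbate1 lie apart at the bottom.

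The largest rises in KO DEN were those of Igsf23, Tmed6, Otog and Phyhip. Igsf23, which encodes a membrane protein of the immunoglobulin superfamily, was -2.72, -3.34, -2.76 and -2.52 on the WT arrays and 1.45, 1.48, 0.98 and 1.70 on the KO arrays. Every KO array was far above every WT array, an 18.9-fold rise (log2 difference 4.24 ± 0.26 SE, adjusted p = 9.88e-08), and a second probe of Igsf23 rose at least 15.1-fold. Otog, which encodes otogelin, a matrix glycoprotein of the inner ear, was -3.40, -4.28, -3.16 and -3.77 in WT DEN and -0.08, -0.27, 1.19 and 0.55 in KO DEN. Again the groups did not overlap, and the rise was 16-fold (4.00 ± 0.37, adjusted p = 1.48e-05). Ppp1r42, a regulatory subunit of a protein phosphatase, rose 9.52-fold (3.25 ± 0.33, adjusted p = 5.17e-05), with KO DEN replicate 4 (-2.44) nearer to WT than the other KO arrays (-1.17 to -1.02).

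Tmed6, of a family that carries cargo between the endoplasmic reticulum and the Golgi, and Phyhip were not well above background on any WT array. Tmed6 was -2.22, -3.12, -3.29 and -2.32 on the KO arrays and at least 6.29-fold higher there (adjusted p = 2.34e-05). One WT array had no value for its probe, so this fit used 3. Phyhip was -3.42, -2.88, -3.08 and -2.78 on the KO arrays and at least 5.09-fold higher (adjusted p = 0.00112). Wdfy1, an endosomal adaptor of Toll-like receptor signaling, rose evenly in the KO arrays. It lay at -0.53, -0.52, -0.60 and -0.31 in WT DEN and at 2.06, 1.56, 1.85 and 1.17 in KO DEN (2.15 ± 0.18, adjusted p = 3.84e-06). A second Wdfy1 probe rose by 2.48 ± 0.13, while the remaining one gave -0.47 ± 0.20 and was not called (adjusted p = 0.206).

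Further down the list were Tescl (2.75 ± 0.44), the mucin-like Fcgbp (2.37 ± 0.50), Sfrp1 (2.37 ± 0.33), Meg3 (2.20 ± 0.49), Sik1 (2.13 ± 0.49) and Pglyrp1 (2.11 ± 0.26), all with adjusted p from 0.000314 to 0.0292. Sfrp1 is a secreted inhibitor of Wnt ligands. Meg3 is a maternally expressed long noncoding RNA, and it was called by 2 of its 5 tested probes. Sik1 is a kinase of the salt-inducible family. Pglyrp1 encodes a secreted protein that binds bacterial peptidoglycan. Tescl, Fcgbp and Sfrp1 were dim in WT DEN, where 2, 2 and 1 of 4 arrays were well above background. Under normexp the differences of Tmed6 (-0.07), Fcgbp (-0.04) and Sfrp1 (-0.11) were at or just below 0 and were not called.

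Beside Gadd45b, the largest falls were those of Lncbate1, Cidea, Dbp and Cfd. Lncbate1, a long noncoding RNA first described in brown fat, was 0.21, -0.84, 0.11 and -0.98 on the WT arrays and -7.71, -6.41, -6.26 and -6.94 on the KO arrays. No KO array was well above background, and the fall was at least 29.1-fold (adjusted p = 0.00514). Cidea, a lipid droplet protein that drives droplet fusion and is abundant in brown fat and in fatty liver, was 6.55, 4.53, 6.68 and 5.69 in WT DEN and 1.45, 0.09, 2.60 and 2.44 in KO DEN. The lowest WT array was well above the highest KO array, and the fall was 18.5-fold (log2 difference -4.21 ± 0.62, adjusted p = 0.00199). Cfd, which encodes adipsin, the serine protease complement factor D, was 4.73, 3.53, 5.84 and 4.67 against 1.67, -0.11, 1.73 and 2.79. Its groups did not overlap either (-3.17 ± 0.54, adjusted p = 0.00585).

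For both Cidea and Cfd, KO DEN replicate 2 was the lowest KO array and WT DEN replicate 2 the lowest WT array. In the wider lipid droplet list, 2 of 29 members tested were called lower (Cidea and Cidec) and none higher (6.9%, against 3.92% of all genes). Of the 29, 25 lay below 0, with a median difference of -0.23. Cidec, a relative of Cidea that enlarges droplets, was 5.15, 3.50, 5.23 and 4.64 in WT DEN and 3.04, 0.57, 3.11 and 3.70 in KO DEN. Its groups overlapped, and its adjusted p of 0.0499 was just inside the threshold (-2.03 ± 0.53). Of 9 adipocyte markers tested, 3 were lower in KO DEN (33.3%, against 3.92% of all genes): Cidea, Cfd and Retn. Retn, the gene of resistin, was not well above background in KO DEN and was at least 1.76-fold lower. The mean level of these 9 markers was 1.04 to 1.67 on the WT arrays and 0.10 to 0.64 on the KO arrays, but 4 of the 9 lay above 0 and the median difference was -0.15. The defining adipocyte genes Lep, Plin1, Ucp1 and Dio2 were well above background on 0 of the 8 arrays, and Adipoq on 1. No member of the fatty acid synthesis list was called (0 of 24, median 0.06), and Fasn was 7.39 ± 0.63 (SD, n = 4) in WT DEN and 7.91 ± 0.37 in KO DEN. Of 32 genes of PPAR-alpha and fatty acid oxidation, only Vnn1, a pantetheinase, was called (-1.04 ± 0.21, adjusted p = 0.0165), which is 3.12% of that list.

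The other large falls were Gm3893 (-3.06 ± 0.22), Syngr4 (-2.61 ± 0.35, 3 WT arrays), Pira2 (-2.56 ± 0.37) and Pop4 (-2.54 ± 0.50), and, given as bounds, 2010109A12Rik (at least 2.55-fold lower), Mill2 (at least 1.89-fold) and Mmp13 (at least 1.6-fold). Pira2 is an activating immunoglobulin-like receptor of myeloid cells, and it was -3.70, -2.66, -1.79 and -3.99 in WT DEN and -5.34, -5.57, -5.78 and -5.69 in KO DEN. In KO DEN, 1 of 4 arrays was well above background for Pira2 and 2 of 4 for Gm3893, so the sizes of both falls are uncertain. Mill2 is a class I-like protein of the MHC superfamily, Mmp13 a collagenase, and Pop4 a subunit of the RNA-processing enzyme RNase P. Pop4 was 3.05, 3.06, 3.19 and 2.86 in WT DEN and 0.00, 2.19, 0.13 and -0.33 in KO DEN, so that KO DEN replicate 2 lay between the other KO arrays and the WT arrays.

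**Figure D2:**
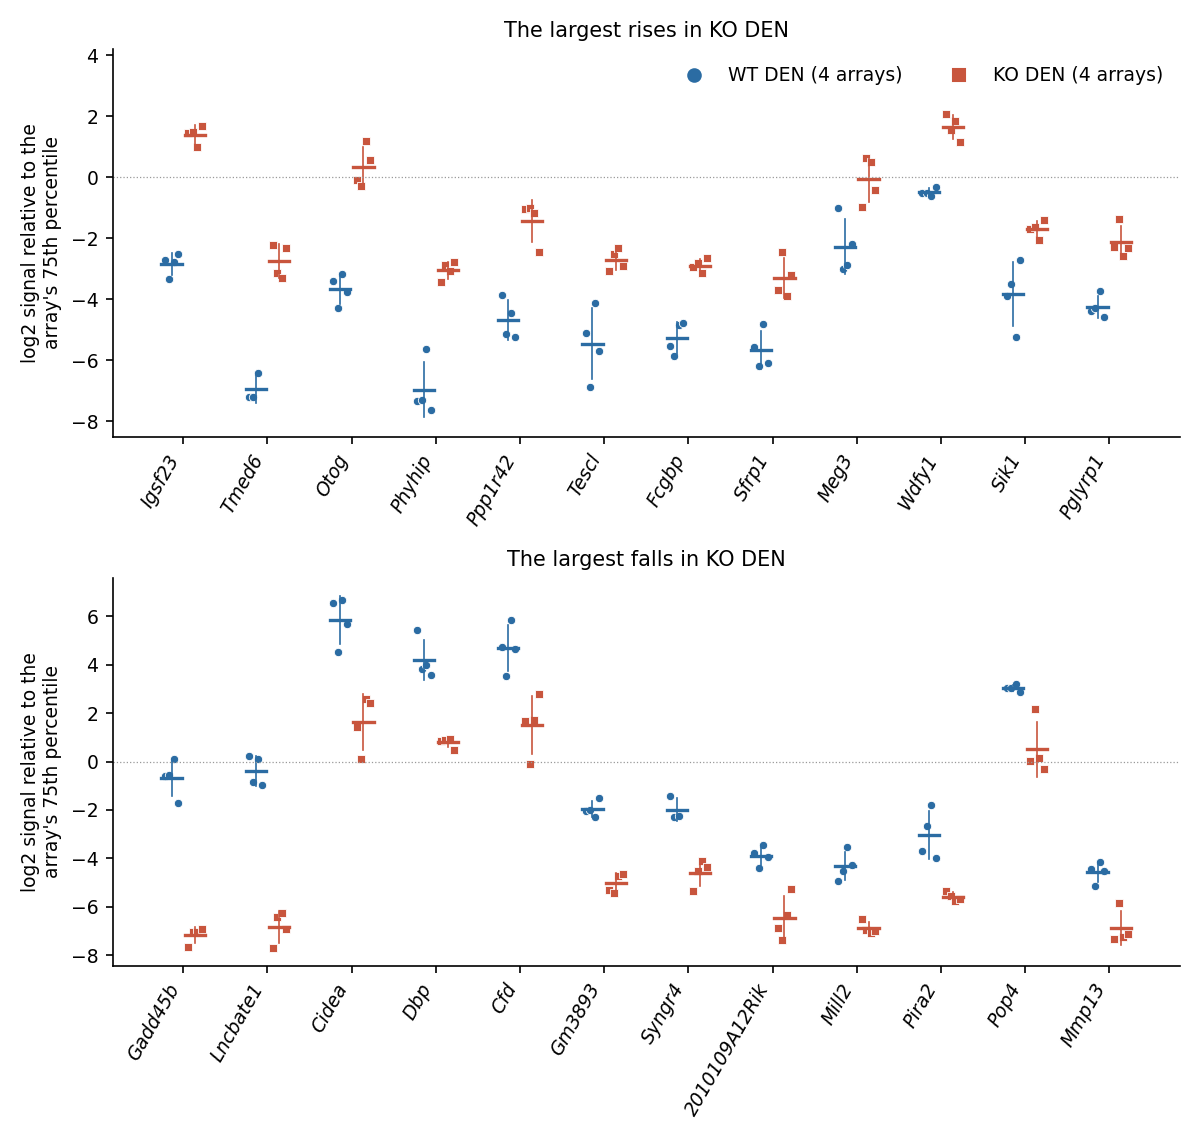
Log2 signal, minus each array's 75th percentile, on each WT DEN array (circles) and KO DEN array (squares) for the genes with the largest rises (top) and falls (bottom); short lines are group means and vertical lines 1 SD. Both groups are apart in every gene shown, as the choice of these genes required, and KO DEN replicate 2 is the KO array of Pop4 that lies high (2.19).

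Of the gene lists compared, that of macrophages and monocytes held the most genes called lower. Of 26 genes, 11 were lower in KO DEN and none was higher (42.3%, against 3.92% of all genes), with a median difference of -0.90 against -0.04 over all genes. Adgre1, an adhesion receptor and the classical surface marker of mouse macrophages, was 1.99, 2.10, 3.65 and 2.10 on the WT arrays and 0.63, 0.16, 0.91 and 0.39 on the KO arrays. WT DEN replicate 3 stood above the other WT arrays, all of which lay above every KO array (-1.94 ± 0.33, adjusted p = 0.00542). Vsig4, the complement receptor of Kupffer cells, was 1.69, 1.66, 2.78 and 1.74 against 0.45, -0.48, 0.64 and 0.39 (-1.71 ± 0.30, adjusted p = 0.00714). Cd68, a lysosomal glycoprotein, was 0.22, -0.19, 0.12 and -0.11 against -1.22, -1.91, -1.41 and -0.83 (-1.36 ± 0.20, adjusted p = 0.00236), with WT DEN replicate 3 not the highest there. Tyrobp, the signaling adaptor of many myeloid receptors, fell by 1.37 ± 0.27 (adjusted p = 0.0133).

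The other called members were the Fc receptor Fcgr1 (-1.0), the cathepsin Ctss (-1.04), the complement component C1qc (-1.06), the secreted scavenger protein Cd5l (-1.0), the lysozyme Lyz1 (-0.97), the growth factor receptor Csf1r (-0.73) and, by a probe other than its brightest, Aif1. Lyz1 and Lyz2 are near-identical copies whose probes may share signal; Lyz2 was -1.28 and was not called (adjusted p = 0.0604). The 3 members above 0 were Gpnmb (0.19), Itgam (0.24) and Cx3cr1 (0.99), none of them called. The mean level of the 26 genes was 0.59 to 1.47 on the WT arrays, highest on WT DEN replicate 3, and -0.02 to 0.36 on the KO arrays. The number of members called lower was 6 without WT DEN replicate 3, 6 without KO DEN replicate 2 and 7 without KO DEN replicate 4. It was 5 with slide as a block, where Cx3cr1 was called higher, 1 in the series table without scaling and 1 under normexp.

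The promoters of the macrophage genes were searched for a short sequence known from this lineage. The letters AGGAAGT, or ACTTCCT on the other strand, form the core bound by PU.1 and other ETS factors, and PU.1 is the main transcription factor of the macrophage lineage. They were searched on both strands in the 250 bases before each transcription start in the RefSeq promoter table (GRCm38.p6). A window was found for 21 of the 26 genes, and 6 held the letters (28.6%: C1qb, C1qc, Fcgr1, Lyz1, Lyz2 and Spic), against 8.62% of the 10643 tested genes with a window and 7.69% of all 32851 windows. Of the 8 called members with a window, 3 held them, and of the 13 members not called, also 3. The 3 promoters of called members that held the letters are shown 5′ to 3′ on the strand of the gene, with the match in capitals. All 3 genes lie on the minus strand, at chr10:117292869-117293118 (Lyz1), chr3:96293970-96294219 (Fcgr1) and chr4:136892915-136893164 (C1qc), and the first base of the match lies 100, 61 and 195 bases before the start.
Lyz1: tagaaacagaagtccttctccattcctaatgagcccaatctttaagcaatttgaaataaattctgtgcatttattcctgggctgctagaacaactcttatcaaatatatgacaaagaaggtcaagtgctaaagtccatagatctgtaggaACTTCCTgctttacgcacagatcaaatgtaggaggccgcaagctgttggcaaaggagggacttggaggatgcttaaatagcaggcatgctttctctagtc
Fcgr1: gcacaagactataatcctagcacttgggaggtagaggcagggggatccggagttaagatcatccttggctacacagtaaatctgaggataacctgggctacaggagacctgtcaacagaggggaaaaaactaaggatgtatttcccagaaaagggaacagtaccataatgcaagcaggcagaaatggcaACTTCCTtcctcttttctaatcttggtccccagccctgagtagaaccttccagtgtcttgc
C1qc: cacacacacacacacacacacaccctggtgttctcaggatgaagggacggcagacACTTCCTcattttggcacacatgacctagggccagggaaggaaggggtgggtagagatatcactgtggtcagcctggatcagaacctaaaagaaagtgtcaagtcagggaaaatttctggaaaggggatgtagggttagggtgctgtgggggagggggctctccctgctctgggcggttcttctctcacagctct
A match of letters is a description of the sequence and does not show that a factor binds there.

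Other genes of myeloid cells, outside that list and chosen after their values were seen, also fell. They included C5ar2 (-2.07 ± 0.25), a receptor of complement C5a, Scimp (-2.03 ± 0.42), Clec4n (-1.76 ± 0.27), which encodes dectin-2, Ms4a6d (-1.51 ± 0.24) and Fpr1 (-1.45 ± 0.29), the formyl peptide receptor. Scimp was dim in KO DEN (mean -6.01, below that of Pira2 at -5.59), so the size of its fall is uncertain. The Fc receptors Fcgr3 and Fcgr4 and the paired receptors Pilra and Pilrb1 fell by 1.10, 1.08, 1.14 and 1.03. Of 24 liver endothelial markers tested, 5 were lower and none was higher (20.8%, against 3.92% of all genes). Of the 24, 18 lay below 0, and the median was -0.33 against -0.04 over all genes. The genes called were Clec4g, a lectin of sinusoidal endothelium (-0.96 ± 0.20, adjusted p = 0.0185), Pecam1 (-0.67 ± 0.16, adjusted p = 0.0356), and, by probes other than the brightest, Cdh5, Fcgr2b and Oit3. The members ranged from -1.25 (Lyve1, not called, adjusted p = 0.0971) to 0.30 (Egfl7). Pecam1 was -2.73, -2.64, -2.59 and -2.34 in WT DEN and -3.15, -3.18, -3.38 and -3.27 in KO DEN. Its call was lost with any 1 of the 8 arrays left out.

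Among the remaining cell types, 1 of 21 lymphocyte markers was lower (Cd3g of the T cell receptor complex, -0.93 ± 0.22), as was 1 of 25 stellate cell and matrix genes (Hgf, the hepatocyte growth factor, -0.67 ± 0.18). A second Hgf probe gave -0.77 and was not called (adjusted p = 0.252), and the call of Hgf was lost with any 1 of the 8 arrays left out. No neutrophil marker (of 7), biliary marker (of 13), erythroid gene (of 6) or muscle gene (of 5) was called. Of the hepatocyte identity genes 2 of 16 (12.5%), Apob and Hnf4a, were called higher, in each case by a probe other than the brightest. The share over all genes was 3.92%, beside 4.76% of lymphocyte markers and 4% of stellate cell and matrix genes. Whether a different makeup of cells contributes to the differences of single genes was not tested.

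**Figure D3:**
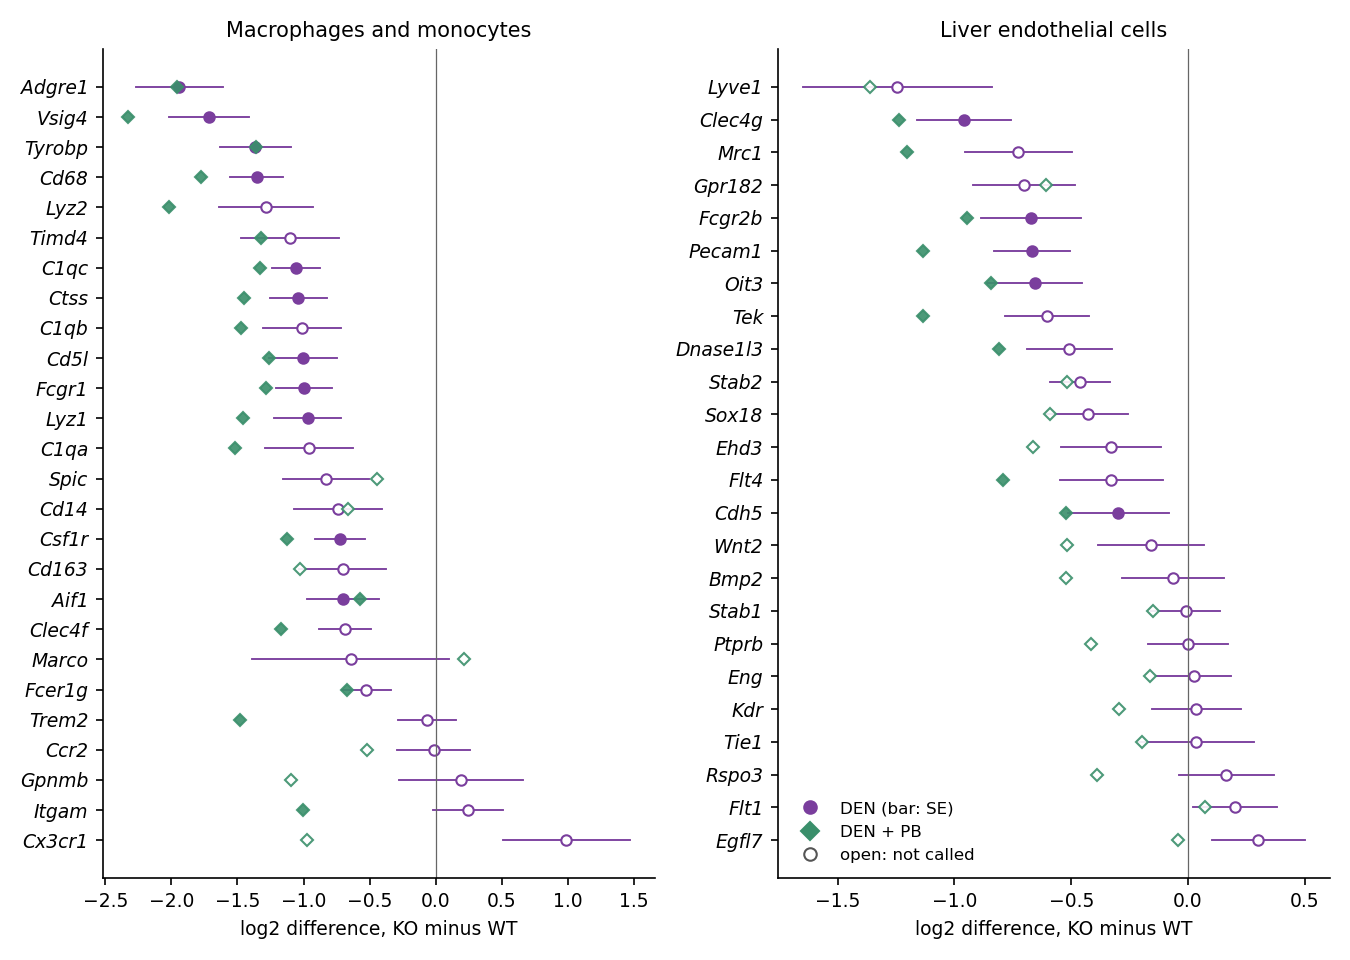
Log2 difference between KO and WT (x axis) for each tested gene of the macrophage and monocyte list (left) and the liver endothelial list (right), under DEN (circles, bars 1 SE) and under DEN + PB (diamonds), by the brightest probe; filled symbols mark genes called by any of their probes. Most macrophage genes lie left of 0 in both comparisons, with a median of -0.90 under DEN and -1.27 under DEN + PB.

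The clock genes Dbp and Nr1d1 were lower in KO DEN. Dbp, a transcription factor of the PAR bZIP family whose liver level swings widely over the day, was 5.42, 3.82, 4.00 and 3.58 on the WT arrays and 0.85, 0.91, 0.92 and 0.49 on the KO arrays. The KO arrays were close to each other and far below every WT array, a 10.6-fold fall (-3.41 ± 0.55, adjusted p = 0.00437). Nr1d1, which encodes the repressor REV-ERBalpha, was 1.82, 1.16, 0.56 and 1.5 against -0.52, -0.26, -0.44 and -0.39 (-1.67 ± 0.28, adjusted p = 0.00496). Its other probes gave -1.0 (adjusted p = 0.0798) and -0.85 (adjusted p = 0.0828), neither called. Dbp and Nr1d1 were the 2 of 20 clock genes called (10%, against 3.92% of all genes), and the median of the list was 0.00. Several others had groups that did not overlap without passing the test: Ciart (-2.73, adjusted p = 0.0937), Per2 (-0.81, 0.247) and Nr1d2 (-0.68, 0.0734) lay lower in KO DEN and Npas2 (1.08, 0.279) higher. Over all genes, 11.0% had groups that did not overlap. The activators Arntl (0.48, adjusted p = 0.568) and Clock (0.06, adjusted p = 0.902) were not called.

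The same clock genes did not differ under DEN + PB. There, the difference was 0.62 ± 0.55 for Dbp and 0.13 ± 0.28 for Nr1d1, with no clock gene called. The gap between both comparisons was -4.03 ± 0.78 for Dbp (unadjusted p = 8.97e-05, limma adjusted p = 0.162) and -1.79 ± 0.39 for Nr1d1 (adjusted p = 0.205), and did not pass over all probes. The E-box, CACGTG, through which the clock activators act, was found in the 250 bases before the start in 4 of the 16 clock genes with a promoter window (Ciart, Cry1, Per1 and Tef), against 9.59% of the tested genes with a window and 6.02% of all windows, and in neither Dbp nor Nr1d1.

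**Figure D4:**
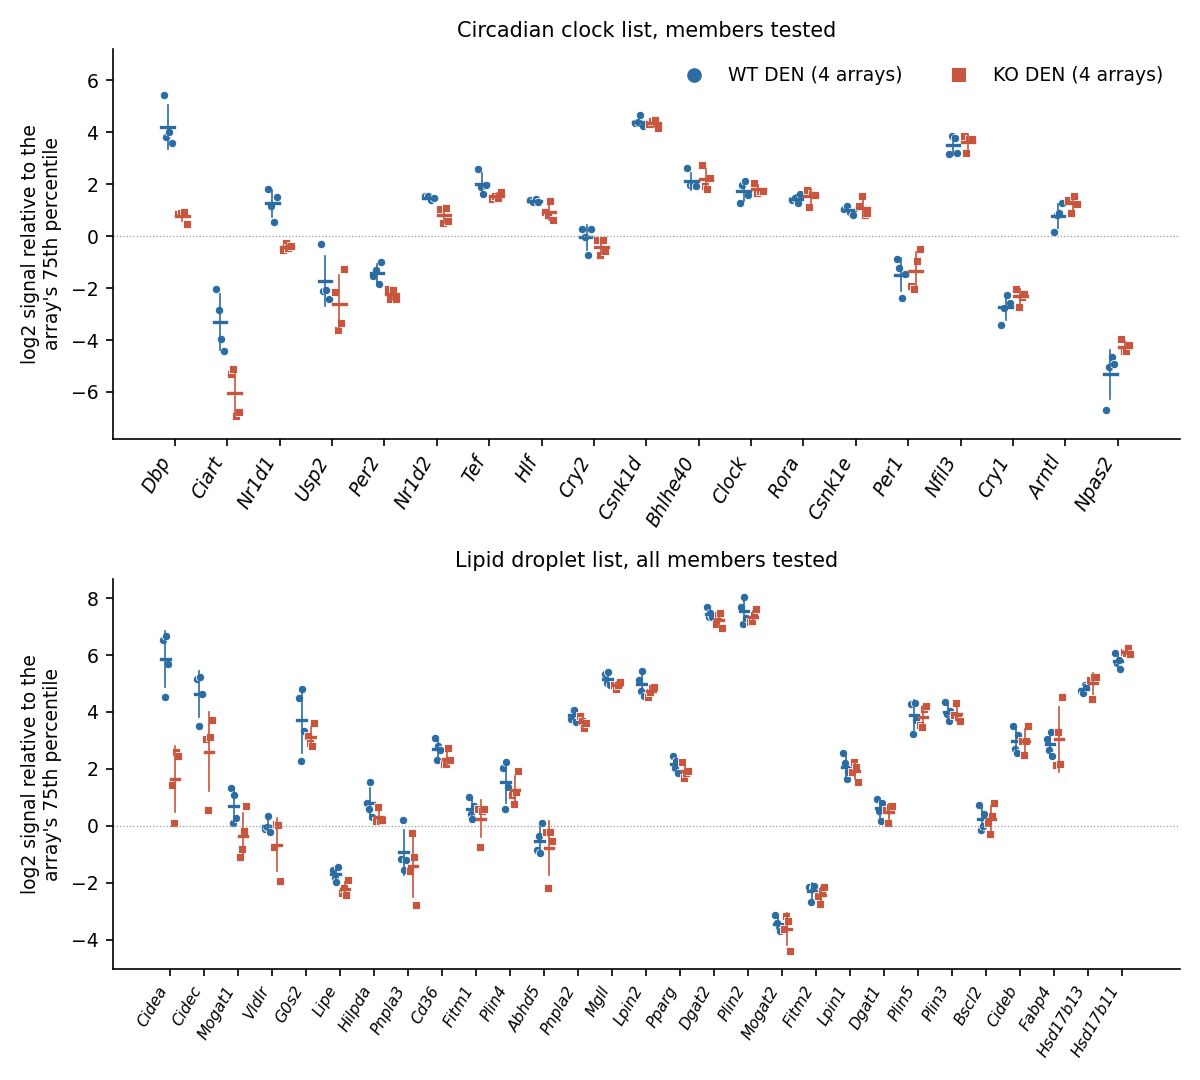
Log2 signal, minus each array's 75th percentile, on each WT DEN (circles) and KO DEN (squares) array for tested clock genes (top) and the 29 tested lipid droplet genes (bottom), each ordered by the difference; short lines are means and vertical lines 1 SD. Dbp and Nr1d1 at the top and Cidea at the bottom are the genes whose groups lie apart and pass the test.

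Each stress list held few called genes, but their shares differed. Against 3.92% of all genes, 13% of immediate early genes, 7.69% of p53 targets and 3.7% of the GADD45 list were called. In the lists described next, the share was 14.3% for the inflammasome and 8% for endoplasmic reticulum stress. It was 6.45% for interferon and MHC class I, 4.55% for NRF2 and 4.35% for NF-kappaB and TNF. Of 27 partners of GADD45 and stress kinases, Gadd45a alone was called. This relative of Gadd45b, a p53-inducible gene, was 1.84, 2.31, 1.74 and 1.53 in WT DEN and 0.01, 0.57, 0.09 and -0.55 in KO DEN, with no overlap (-1.83 ± 0.34, 3.55-fold, adjusted p = 0.00908). The other relative, Gadd45g, was not called (-0.54, adjusted p = 0.738). The kinases of the JNK and p38 modules on that list, their phosphatases and Nr1i3, the gene of CAR, were not called, and the median of the list was -0.07. Among 26 p53 targets, Btg2 (-0.73 ± 0.17, adjusted p = 0.0311) and, by another probe, Sesn1 were lower, 20 of the 26 lay below 0 and the median was -0.10. Btg2 and Zfp36 (-0.66 ± 0.16), which both act in mRNA decay, and Junb, by another probe, were the 3 of 23 immediate early genes called, all lower. Btg2 had 2 further probes with differences of 0.08 and -0.11, neither called. A second Zfp36 probe gave -0.68 and was not called (adjusted p = 0.147).

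In the response to endoplasmic reticulum stress and amino acid shortage, 2 of 25 genes were called, both lower: Trib3, a pseudokinase induced by ATF4 (2.58, 1.81, 2.52 and 2.05 against 0.49, 1.24, 0.98 and 0.03; -1.55 ± 0.26, adjusted p = 0.00496), and Dnajb9, a chaperone of the endoplasmic reticulum (3.32, 3.51, 3.14 and 3.19 against 2.16, 1.48, 1.88 and 2.50; -1.29 ± 0.29, adjusted p = 0.0246). Neither gene had overlapping groups. Of the 25 genes, 14 lay below 0 and 10 had an unadjusted p under 0.05. These 10 included Herpud1 (-0.89, adjusted p = 0.0526), Xbp1 (-0.88, 0.0540), Creld2 (-1.0, 0.0954) and Hspa5 (-0.65, 0.101), none called, and on the other side of 0 Asns (1.57, 0.165). Hmox1, which degrades heme, was the 1 of 22 NRF2 targets called (-0.92 ± 0.20, adjusted p = 0.0219). In the inflammasome list, Casp1, the protease that matures interleukin-1beta, and Il18bp, the decoy of interleukin-18, were lower (2 of 14). Casp1 was -0.04, 0.04, 0.77 and 0.07 in WT DEN and -0.71, -0.49, -0.46 and -0.75 in KO DEN (-0.82 ± 0.21, adjusted p = 0.0440). Ripk3, the kinase of necroptosis, was the 1 of 23 NF-kappaB and TNF genes called (-0.87 ± 0.23). Oasl1 (-1.51 ± 0.30) and Gbp2 (-0.76 ± 0.20) were the 2 of 31 interferon and MHC class I genes called.

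A few growth and signaling genes rose. Of all genes, 3.92% were called. The share was 8.82% of the TGF-beta and BMP list, 9.52% of the growth hormone and IGF list and 4% of the bile acid list. In the TGF-beta and BMP pathway, 2 of 34 genes were higher and 1 was lower, with a median of -0.08. Inhba, which encodes the activin beta-A subunit, was 0.57, 1.42, 0.55 and 0.81 in WT DEN and 2.51, 2.67, 1.78 and 2.26 in KO DEN (1.47 ± 0.24, adjusted p = 0.00460). Ski, a corepressor of SMAD signaling, was higher (0.79 ± 0.18, adjusted p = 0.0281). Its other probes gave 0.45 (adjusted p = 0.0853) and 0.32 (adjusted p = 0.628), neither called. Id1, a target of BMP signaling, was lower, at 2.75, 2.57, 4.13 and 2.20 against 1.86, 1.88, 0.86 and 0.42 (-1.66 ± 0.42, adjusted p = 0.0423). Igfbp5, which binds insulin-like growth factors, was -4.03, -4.36, -4.43 and -3.88 against -1.66, -2.92, -2.20 and -1.71 (2.05 ± 0.31, adjusted p = 0.00236), and Hnf4a was called by another probe, which gave 2 of 21 genes of the growth hormone and IGF axis. Slc51b, the beta subunit of the bile acid exporter OSTalpha/OSTbeta, was the 1 of 25 bile acid genes called, at -3.53, -3.74, -4.24 and -4.13 against -1.37, -2.37, -2.51 and -1.80 (1.90 ± 0.33, adjusted p = 0.00632). In each of these genes all KO arrays lay on the same side of all WT arrays.

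The remaining calls within lists were few. Called were 7.41% of acute phase, 4.17% of periportal, 4.17% of female-biased and 3.85% of oncofetal and tumor genes, against 3.92% of all genes. Orm2, an acute phase glycoprotein, was higher (0.92 ± 0.24) with groups that overlapped, and C3 was called by another probe, so 2 of 27 acute phase genes rose. Sdsl, a serine dehydratase-like enzyme, was the 1 of 24 periportal genes called (0.88 ± 0.17). Lpl, lipoprotein lipase, was the 1 of 24 female-biased genes called (-1.16 ± 0.24) and Hk2, a hexokinase, the 1 of 26 oncofetal and tumor genes (-0.85 ± 0.21). No gene was called among 35 CAR targets, 26 cell cycle genes, 25 cholesterol synthesis genes, 25 male-biased genes or 25 pericentral genes. The cell cycle list had a median of 0.20, with 19 of 26 genes above 0, and KO DEN replicate 4 was the highest array: Plk1 was 0.41 there and -3.09 to -2.0 on the other KO arrays, and -3.44 to -3.04 in WT DEN (adjusted p = 0.164).

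A list of 12 genes with quantitative PCR assays in the same project gave 2 calls under DEN, Gadd45b and Casp1 (16.7%, against 3.92% of all genes). The CAR targets of that list differed widely within groups. Cyp2b10 was 0.75, -0.62, -2.33 and -1.48 in WT DEN and 0.23, -3.02, -1.37 and -0.98 in KO DEN, and Cyp2b9 was 3.13, 2.12, 1.35 and 1.10 against 2.42, 0.20, 0.91 and 0.63, so the groups overlapped in both. Tgfbr2, the type II TGF-beta receptor, was 2.17, 2.19, 2.46 and 2.32 in WT DEN and 1.92, 1.91, 1.71 and 1.84 in KO DEN. These groups did not overlap, but the difference of -0.44 ± 0.15 did not pass over all probes (adjusted p = 0.105). Fndc5, the precursor of irisin, was -0.36 ± 0.24 (adjusted p = 0.413) and Sult1e1, the estrogen sulfotransferase, 0.46 ± 0.42 (adjusted p = 0.574). Under DEN + PB, Sult1e1 rose by 3.28 ± 0.42, and the gap between both comparisons did not pass (adjusted p = 0.185).

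Position along the chromosomes was read from the order of genes in the RefSeq table. None of the 40 tested genes nearest to Gadd45b, 20 on either side, was called (median 0.09), and 29 of the 632 tested genes of its chromosome were (4.59%). Called genes had a called neighbor more often than all genes did. Of the 522, 79 (15.1%) had a called gene as the next tested gene, against 7.58% of all genes, and 56 of the 79 had one that moved the same way. There were 7 runs of 3 or more, among them Fcgr2b, Fcgr4 and Fcgr3, Pilra, Pilrb1 and Pilrb2, Pira2, Lilra6 and Lair1, and Mill2, Pglyrp1 and Ccdc61. The last of these moved in mixed directions, with Pglyrp1 higher and Mill2 and Ccdc61 lower. By their brightest probes, Fcgr2b (-0.67, adjusted p = 0.0917) and Pilrb2 (-0.18, adjusted p = 0.66) were not called, and each counts through another probe. Probes of related neighbors may also share signal. Of the 23 largest changes other than Gadd45b, 10 were on the chromosome of Igsf23 (Pira2, Mill2, Pglyrp1, Igsf23, Tescl, Fcgbp, Pop4, Dbp, Syngr4 and Otog), which holds 8.01% of the genes tested. On it, the stretch from Pira2 to Otog, chosen after these values were seen, held 448 tested genes, of which 39 were called (8.71%), 17 higher and 22 lower, against 15 of the other 618 (2.43%). The share of genes called was 1.49% to 6.62% over the 20 chromosomes with at least 100 tested genes.

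The same genotype comparison in the 8 DEN + PB mice shares no array with the DEN comparison. Both come from the same fit and share its estimate of the spread of each probe, so their calls are not independent. The DEN + PB comparison gave 1226 of 13306 genes (9.21%). Of the 522 genes called under DEN, 292 were called there too (55.9%), which is 23.8% of the DEN + PB list. The direction was the same in 288 and opposite in 2. Of the 281 genes lower in KO DEN, 187 were also lower under DEN + PB (66.5%, background 6.7%), and of the 240 higher ones 101 were also higher (42.1%, background 2.53%). The difference of both shares was not tested. Of 366 genes called in 1 direction by their brightest probe, 346 kept the sign. Their median difference, counted in the direction it had under DEN, was 1.04 under DEN and 0.93 under DEN + PB. These genes were chosen by their difference under DEN, which favors a larger value there.

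Under DEN + PB, the difference was 4.49 ± 0.26 for Igsf23, 4.10 ± 0.37 for Otog and 2.34 ± 0.18 for Wdfy1, beside 4.24, 4.0 and 2.15 under DEN. Cidea was again lower (-2.44 ± 0.62), as was Gadd45a (-1.20 ± 0.34). Of 26 macrophage genes, 19 were called lower, in a comparison where 6.7% of all genes were, against 2.12% under DEN. Sfrp1 (0.53 ± 0.33), Sik1 (0.58 ± 0.49), Inhba (0.33 ± 0.24), Slc51b (0.34 ± 0.33) and Trib3 (-0.32 ± 0.26) were not called there. The difference of both genotype effects was called for 0 of 13306 genes (0%) and for 2 probes without a symbol, while 1474 probes had an unadjusted p under 0.05. Among the 366 genes above, 81 had an unadjusted p under 0.05 for the difference and 0 passed after adjustment. So no named gene was shown to differ between KO and WT under DEN alone and not under DEN + PB.

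Outside the lists, 3 neighboring paralogs of the serpin family that inhibit neutrophil proteases are given here, chosen after their values were seen. Serpinb1a, Serpinb1b and Serpinb1c fell by 2.10 ± 0.38, 2.23 ± 0.49 and 2.23 ± 0.37 under DEN (adjusted p of 0.00908, 0.0232 and 0.00515), and were 0.84, 0.91 and 0.78 under DEN + PB, none called. The adjusted p of the difference was 0.162 for Serpinb1a and Serpinb1c and 0.213 for Serpinb1b. The probes of these paralogs may share signal.

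**Figure D5:**
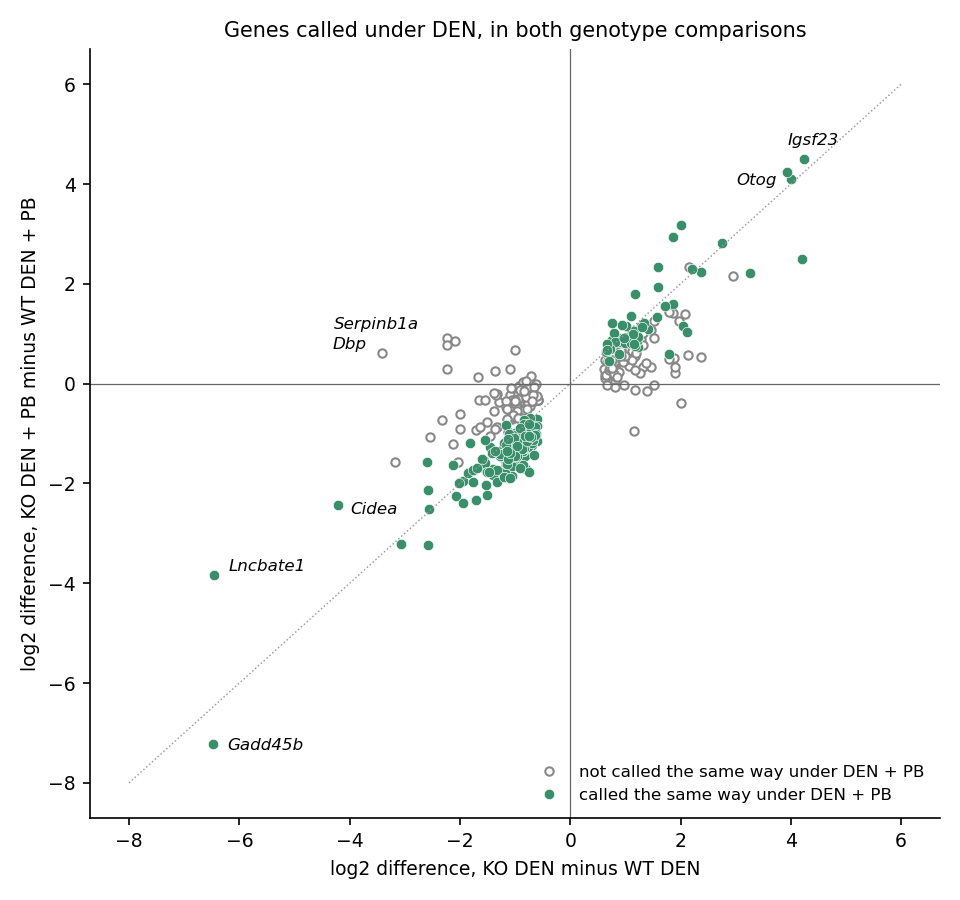
Log2 difference between KO and WT under DEN (x axis) and under DEN + PB (y axis) for the 366 genes called under DEN in 1 direction by their brightest probe; filled green circles were called the same way in both and the dotted line marks equal values. Points lie in the same quadrant for 346 genes, and Dbp and Serpinb1a lie above 0 on the y axis.

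The slide of an array was read from the files. Slides 1 and 3 each held 1 array of both groups. Slide 2 had WT DEN arrays only and slide 4 KO DEN arrays only, as far as these 8 arrays go. Of the 366 genes, 365 had the sign of the overall difference on slide 1 (KO DEN replicate 2 against WT DEN replicate 1) and 366 on slide 3 (KO DEN replicate 1 against WT DEN replicate 3), pairs that are part of the data that chose these genes. In 348 of the 366 the groups did not overlap, which fixes the sign of any pair. On slides 1 and 3, the difference was -6.43 and -7.78 for Gadd45b, 4.2 and 4.21 for Igsf23, -6.46 and -5.22 for Cidea, -4.51 and -3.15 for Dbp, and -1.83 and -3.02 for Adgre1.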

How the data were processed

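Liver RNA was labeled with Cy3 and hybridized to 16 Agilent whole mouse genome arrays of 1 color, 4 per group, as the study's methods describe. The authors' scanner software (Feature Extraction 12.0.3.1) wrote the deposited processed signal, an intensity on a linear scale that is corrected for background but not scaled between arrays. The deposited table of intensity values for the series held the same signals. From these, the log2 of the processed signal minus each array's 75th percentile was computed; outlier spots were left out and repeat spots averaged. No spot was saturated, and the number of arrays limits the precision. Probes had to clear background on every array of 1 or more of the 4 groups to enter the test (24457 of 41174 probes, 59.4%). Symbols came from a RefSeq table (GRCm38.p6), by which 28223 probes (68.5%) matched. For genes with several tested probes, the brightest gives the value, and a call by any of them counts.

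Group means over all 16 arrays were fitted with limma 3.58.1 (lmFit, eBayes) in R 4.3.3, with Benjamini-Hochberg adjustment over the probes tested. Called means an adjusted p under 0.05 and at least 1.5-fold. SE is from the fit and SD from the arrays. Where no array of a group cleared background, the fold is a lower bound, for which each array of that group took the lowest signal that cleared background, or the probe's signal if higher. P-values measure the spread between mice. The genes named are Gadd45b, the 12 largest rises and falls among called genes whose groups did not overlap, up to 4 called genes per list, and the study's quantitative PCR genes. All other genes named were chosen after their values were seen. The comparison and the gene lists were chosen with earlier results of these data known, so list counts are descriptions. Alternatives were other scalings, background corrections, filters, fits, slide and replicate blocks, and runs without single arrays. The fit was tested on simulated data. In the clock list, 1 member is counted but not reported here.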

Additional observations from a re-analysis of the deposited data

Results flagged for a closer look

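Within a group of 4 arrays, 1 array stood apart from the other 3 in 13 of 178 group values examined, and chance alone gives such a gap in about 1 in 20 groups. On WT DEN replicate 3 this held for 8 values. The log2 signals of Adgre1 (3.65, nearest other array 2.10), Vsig4 (2.78, nearest 1.74), S100a9 (2.89, nearest 1.86), Casp1 (0.77, nearest 0.07) and Phyhip (-5.63, nearest -7.29) were above the rest of WT DEN. Those of Acly (0.68, nearest 1.98), Slc13a3 (-2.92, nearest -1.71) and Slc1a4 (-1.65, nearest -1.33) were below. In Cdh1, WT DEN replicate 1 (0.74, nearest 1.63) and KO DEN replicate 3 (-1.68, nearest 0.94) were low. In KO DEN, Gadd45b was lowest on replicate 1 (-7.67, nearest -7.03), Mmp13 was highest on replicate 2 (-5.85, nearest -7.13), and Ppp1r42 was lowest on replicate 4 (-2.44, nearest -1.17). Gadd45b and Mmp13 were not well above background on these KO arrays.

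The genotype difference under DEN and under DEN + PB was itself tested, and it differed for 2 probes with no gene symbol. For A_52_P134621 it was -3.81 under DEN and 0.54 under DEN + PB, a gap of -4.34 ± 0.48 (limma adjusted p = 0.00281), and only the WT DEN arrays were well above background. For A_52_P259497 it was 2.69 and -1.79, a gap of 4.48 ± 0.59 (adjusted p = 0.0133).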

How the results depend on the processing

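The count of 522 genes called under DEN was 69 from the series table without scaling, 15 under normexp, 314 under normexp without spots with a marked background (251 of them shared), 188 with no filter on dim probes, 279 with the 8 DEN arrays alone, 269 without moderation, 211 with slide as a block and 571 with slide as a random block, and 208 to 532 when single arrays were left out. The 11 macrophage genes became 1, 1, 5, 6, 7 and 5 with the series table, normexp, no filter, the 8 arrays, no moderation and the slide block, and 6 to 12 without single arrays. The DEN + PB count of 1226 became 49 under normexp, 488 under normexp without marked backgrounds, 791 with no filter and 1937 with array weights (1141 to 1405 without single arrays). The count of 0 for the difference became 1 with the series table, 1 under normexp without marked backgrounds and 33 with array weights (0 to 3 without single arrays). Gadd45b was called under every alternative run that tested it, with fitted differences of -6.82 to -6.22 without single arrays and -1.79 under normexp. The filter for probes well above background on all 8 DEN arrays left it out.

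Direction reversed under normexp for Tmed6 (-0.068), Fcgbp (-0.039), Sfrp1 (-0.11), Krt19 (-0.19), Mpo (-0.45), Cel (-0.20), Akr1b7 (-0.27) and Sult1e1 (-0.38), where the median of all probes moved to -0.141. It also reversed for Cyp2b10 without WT DEN replicate 1 (0.19) or KO DEN replicate 2 (0.21), within a range of -0.87 to 0.21 over the runs without single arrays. The cause was not tested. Of 56 named genes called, 32 stayed called in all runs without single arrays and 33 with the slide block. Those that stayed called under normexp were Cd68, Cidea, Dbp, Gadd45b, Igsf23, Inhba, Lncbate1 and Wdfy1. Normexp on the median signal, the random slide block and the removal of marked backgrounds were chosen after seeing the data. With the replicate number as a replicate block, 618 genes were called; deviations of arrays with the same number correlated at -0.19, 0.09, 0.01 and 0.33, so the numbers were not taken to pair the mice. Dim probes limit the sizes given as bounds.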
